A study of Mus musculus with 2 samples.

Results

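The cells described here were selected from single-cell RNA sequencing of mouse aorta by 5 genes: Mdga2, Chrm2, Chrm3, Adamtsl1 and Cacna2d3. A cell was taken when the UMIs (unique molecular identifiers, 1 per captured RNA molecule) of these genes summed to at least 4 and exceeded 5 other gene sums. The other sums were Npnt, Mylk4 and Sost; Sncg, Timp4, Sparcl1 and Npy1r; Entpd2, Cpz and Gdf10; Pex5l, Fmod and Ccn5; and Tmem100, Opcml and Cd55. The working name of the group was muscarinic receptor pericyte-like mural cells. It held 255 of 9427 cells that passed the limits on depth, mitochondrial share and macrophage RNA, 85 in the wild-type library and 170 in the knock-in library. The UMIs of the 5 genes chose the cells, so their high levels are a description and support nothing.

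The study prepared 1 library of wild-type aorta and 1 of aorta with a knock-in mutation in matrix Gla protein (MGP), a secreted protein that binds bone morphogenetic proteins (BMPs) and inhibits calcification. The mice were 1 month old and of both sexes, the adventitia had been dissected away, the tissue was digested with Liberase, dead cells were removed by DAPI staining and sorting, and the labels place both libraries in a single batch. The title asks how MGP, through BMPs, bears on what cells of the media become. The sources used here give neither the mutated residue nor the number of mice per library, and with 1 library per genotype no difference below has a replicate check.

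Muscarinic receptors are the G protein-coupled receptors for acetylcholine. The M2 receptor, encoded by Chrm2, couples to inhibitory G proteins, and the M3 receptor, encoded by Chrm3, couples to Gq, which releases calcium from stores. In vessels, endothelial M3 receptors drive nitric oxide release and relaxation, while receptors on smooth muscle drive contraction. Pericytes are mural cells of small vessels, known for Rgs5, Abcc9, Kcnj8, Pdgfrb, Cspg4 and Notch3. Of the other genes in the rule, Mdga2 encodes a membrane-anchored immunoglobulin-domain protein studied at synapses, Adamtsl1 a secreted matrix protein without protease activity and Cacna2d3 an auxiliary calcium channel subunit.

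The libraries held 79626104 and 85831737 UMIs, and the median selected cell had 17060 UMIs in wild-type and 11256.5 in knock-in tissue. The libraries shared 4 barcodes among their kept cells. The selected cells made up 2.55% (95% Clopper-Pearson interval 2.04 to 3.14) of all wild-type cells, and 2.79% (2.39 to 3.24) of the knock-in ones. These intervals, and those on ratios and counts below, cover counting error only. With every cell thinned to 5000 UMIs, which kept 3176 wild-type and 5381 knock-in cells, the shares were 2.42% and 2.82%. At the edge of the rule, 3 wild-type and 4 knock-in members had a sum of exactly 4, and 2 and 7 cells just outside had a leading sum of 3. Another 816 wild-type and 567 knock-in cells reached 4 but had another sum that was as high or higher.

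The selected cells were not 1 population. All kept cells were clustered on their other genes, leaving out the genes of every sum. One cluster, called the main cluster here, held 176 members: 43 of 85 wild-type members, 50.6% (39.5 to 61.6), and 133 of 170 knock-in members, 78.2% (71.3 to 84.2). Its members lay close together, with 79.3% of their nearest neighbours also selected cells. Another 18 members, 8 wild-type and 10 knock-in, lay in the cluster with endothelial markers. The remaining 34 wild-type and 27 knock-in members were scattered, mostly over clusters with fibroblast markers. The split into main cluster and remainder was made after the data had been seen.

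The 3 sets entered the rule through different genes. In the main cluster 35 of 43 wild-type and 89 of 133 knock-in members carried UMIs of 3 or more of the 5 genes. In the endothelial-marker cluster Chrm3 was seen in 8 of 8 wild-type and 7 of 10 knock-in members, and Chrm2 had 0 UMIs in all 64 and 55 cells of that cluster. Chrm3 there stood at 81.1 (63.6 to 102) CPM, UMIs per 1000000 UMIs of the same cells, in wild-type and 231 (195 to 272) CPM in knock-in tissue, and at 24.6 and 77.8 CPM in its cells outside the rule. Among these members were 2 cells per library with Ccl21a beside Mmrn1 or Reln, genes known from lymphatic endothelium, and they carried 19 wild-type and 16 knock-in Chrm3 UMIs. The scattered members rested on Adamtsl1, which gave 91.7% and 81.0% of their UMIs in the 5 genes and was the only 1 of the 5 seen in 20 of 34 and 11 of 27 cells. Among the scattered members, 5 wild-type cells held all 407 UMIs of Upk3b, a mesothelial gene, that the selected cells had. Over all selected cells, the genes with the largest ratio to the highest comparison population therefore began with Ccl21a at 2403-fold, Nts at 102-fold, Mmrn1 at 88.3-fold and Krt8 at 52.4-fold, ahead of Pnoc at 48.7-fold and of the rule genes Chrm3 and Chrm2 at 34.2-fold and 33.5-fold.

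**Figure D1:**
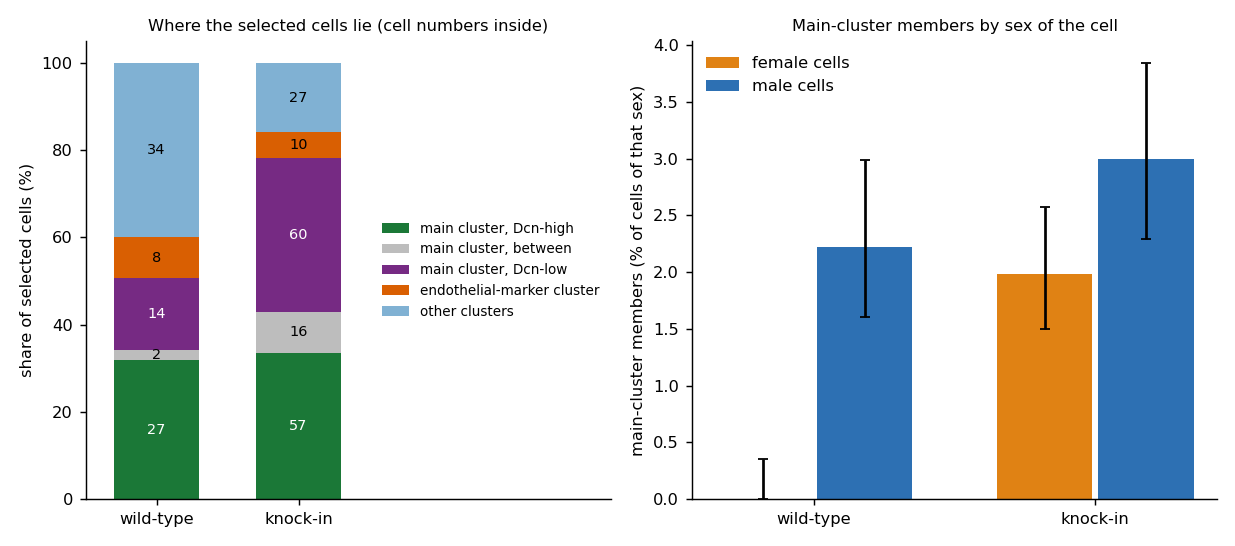
Left, share of the selected cells (%) by cluster in each library, with cell numbers inside the bars; right, main-cluster members as a share (%) of female or male cells, with 95% Clopper-Pearson intervals. The main cluster takes 43 of 85 selected wild-type cells and 133 of 170 from the knock-in library, and its wild-type members include 0 female cells.

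The main cluster in the wild-type library held no female cell. Cells were called female from Xist and male from Y-linked transcripts. Of 43 wild-type main-cluster members 42 were male and 1 was neither. Thus 0 of 1057 female cells against 42 of 1891 male cells, 2.22% (1.61 to 2.99), were main-cluster members. The Clopper-Pearson interval of the female share reaches up to 0.348%. The 12 wild-type cells of that cluster outside the rule were all male as well. In the knock-in library 55 of 2777 female cells, 1.98% (1.5 to 2.57), and 60 of 2001 male cells, 3.0% (2.30 to 3.84), were main-cluster members. Each of the 5 comparison populations had female cells in the wild-type library, from 26.7% to 40.2% of their cells. Values below for the wild-type main cluster thus come from male cells and 1 undetermined cell, and some between-library values are also given for male cells alone.

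Within the main cluster, muscarinic receptor levels were highest in cells with much decorin RNA, and levels of the pericyte gene Rgs5 in cells with little. Decorin (Dcn), a matrix proteoglycan of fibroblasts, was counted either in large numbers or hardly at all. At least 20 Dcn UMIs were seen in 27 wild-type and 57 knock-in members, called Dcn-high here, with medians of 184 and 170. Fewer than 3 were seen in 14 and 60 members, called Dcn-low, with medians of 0 and 0, and 2 and 16 cells lay between. Depth did not set them apart: median UMIs were 14323 and 14326.5 in wild-type cells, and 11411 and 10083 in knock-in cells.

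A UMI of Chrm2 or Chrm3 was present in 18 of 27 wild-type and 48 of 57 knock-in Dcn-high cells, and in 3 of 14 and 6 of 60 Dcn-low cells. Chrm2 stood at 174 CPM in wild-type and 234 CPM in knock-in Dcn-high cells, against 18.9 and 15.8 CPM in Dcn-low cells. Chrm3 stood at 143 and 403 CPM against 18.9 and 28.7 CPM. Both receptors together were higher in Dcn-high cells by 3.07 (2.05 to 4.31) on the log2 scale in wild-type and 3.84 (3.31 to 4.41) in knock-in tissue, or 2.56 in knock-in male cells. Both are rule genes, so a cell low in Adamtsl1 and Mdga2 was more likely to be a member when it had receptor UMIs. Over all cells of the main cluster, in the rule or not, which had been clustered without the rule genes, a receptor UMI was present in 19 of 32 wild-type and 50 of 71 knock-in Dcn-high cells, against 5 of 19 and 13 of 97 Dcn-low cells. There the log2 ratio was 2.83 (1.94 to 3.86) and 3.55 (3.13 to 3.99). The cells that the rule left out did not show the contrast by themselves, with 1 of 5 and 2 of 14 Dcn-high against 2 of 5 and 7 of 37 Dcn-low cells.

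Of the other muscarinic receptors, Chrm1 and Chrm5 had 0 UMIs in the main cluster and Chrm4 had 1. Chat, which makes acetylcholine, had 0, and Bche, which breaks it down, stood at 29.0 and 42.8 CPM. As a gauge of free RNA, macrophages were taken as the cells with at least 20 UMIs of C1qa, C1qb, C1qc and Lyz2. There Chrm2 had 0 UMIs and Chrm3 was seen in 1 of 362 and 1 of 327 cells.

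Rgs5, a regulator of G protein signalling, was high in the other set. It was seen in 14 of 14 wild-type and 58 of 60 knock-in Dcn-low cells, at medians of 32 and 12.5 UMIs per cell, and in 9 of 27 and 20 of 57 Dcn-high cells. Its levels were 2732 and 1645 CPM in Dcn-low cells and 147 and 159 CPM in Dcn-high cells, which is 18.5-fold and 10.3-fold. The Npnt, Mylk4 and Sost population, the richest in smooth muscle genes, held Rgs5 at 270 CPM. Of main-cluster members with a muscarinic UMI, 13 of 23 wild-type cells and 25 of 58 from the knock-in library also had an Rgs5 UMI, against 12 of 20 and 64 of 75 members without one. In wild-type cells Rgs5 UMIs were thus about as frequent with a receptor UMI as without, while the Rgs5 level was 503 CPM with and 1591 CPM without. The Dcn limits were set after the values were seen, and the clustering had used these genes, so the split is a description. A split into 2 groups by k-means left out the rule genes and the fibroblast, smooth muscle, pericyte and contractile lists, with Dcn and Rgs5. It put 27 of 27 and 55 of 57 Dcn-high cells in the same group, and 12 of 14 and 57 of 60 Dcn-low cells in the other. The genes left in were counted in the same cells, so this agreement is also a description.

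**Figure D2:**
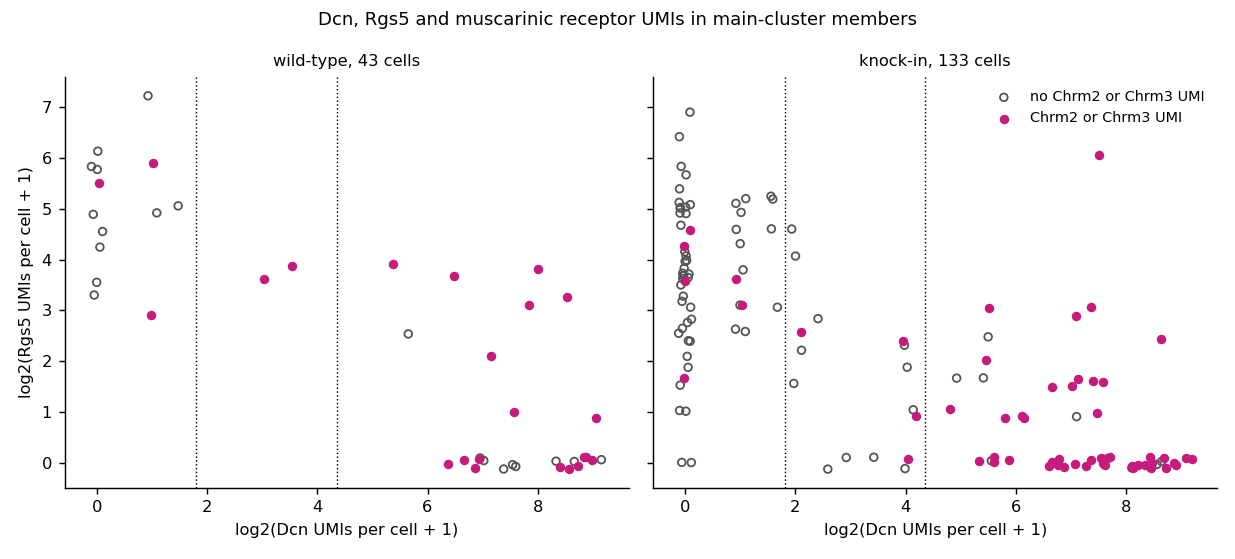
Each point is a main-cluster member, with log2 of Dcn UMIs plus 1 on the x axis and log2 of Rgs5 UMIs plus 1 on the y axis, slightly shifted at random for visibility; filled points carry a Chrm2 or Chrm3 UMI. Dotted lines mark the limits of Dcn-low and Dcn-high cells, and filled points make up 18 of 27 and 48 of 57 cells on the right.

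The name pericyte-like mural was met only in part by the Dcn-high cells, which carried most of the receptor UMIs. They were lower than Dcn-low cells in Rgs5, Cspg4 and most contractile genes, but not in Abcc9 or Pdgfrb. Dcn-high cells held several fibroblast genes above their level in the fibroblast-marker populations. Dcn stood at 15409 CPM in wild-type and 15210 CPM in knock-in cells, against 9448 CPM in the Entpd2, Cpz and Gdf10 population. The set was cut on Dcn, so that level was fixed in part by the cut. Pdgfra, a receptor typical of fibroblasts, stood at 369 and 509 CPM against 255 CPM, and the proteoglycan gene Lum at 1933 and 2260 CPM against 1293 CPM. Collagens were the exception: Col1a1 stood at 3606 and 1626 CPM against 21128 CPM. In knock-in tissue Col1a1 and Col3a1 were also lower in Dcn-high than in Dcn-low cells. Of the 9 fibroblast markers measured, 7 in wild-type and 6 in knock-in tissue were at least 2-fold higher in Dcn-high than in Dcn-low cells, where 13.1% and 10.1% of all genes measured were. Dcn is among the 9, and its call was fixed in advance by the cut. In wild-type tissue 0 were at least 2-fold lower, where 10.6% of all genes were, and in knock-in tissue 1, where 8.68% were. That marker was Pi16, with 43 UMIs in Dcn-high and 135 in Dcn-low knock-in cells.

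Dcn-low cells carried contractile transcripts at an intermediate level. Acta2, smooth muscle actin, stood at 4954 CPM in wild-type and 5547 CPM in knock-in Dcn-low cells, against 19085 CPM in the Npnt, Mylk4 and Sost population. Myh11, smooth muscle myosin, stood at 2198 and 1981 CPM against 4060 CPM. Of the contractile list, 15 of 15 genes measured in wild-type and 13 of 16 in knock-in tissue were at least 2-fold lower in Dcn-high than in Dcn-low cells, where 10.6% and 8.68% of all genes were. Immediate early and heat shock genes, listed as signs of tissue dissociation, also differed between the sets: 11 of 16 in wild-type and 10 of 17 in knock-in tissue were at least 2-fold higher in Dcn-high cells, where 13.1% and 10.1% of all genes were, and their part in the other differences was not tested.

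The remaining pericyte markers split too. Cspg4, the NG2 proteoglycan, followed Rgs5, at 284 and 191 CPM in Dcn-low and 11.2 and 17.7 CPM in Dcn-high cells. Abcc9, a subunit of the ATP-sensitive potassium channel, was higher in Dcn-high cells, at 585 and 582 CPM, than in Dcn-low cells, at 345 and 340 CPM, and its highest level in the comparison populations was 172 CPM. Kcnj8, the partner subunit, stood at 177 and 132 CPM in Dcn-high and 184 and 108 CPM in Dcn-low cells. Pdgfrb, the receptor that recruits mural cells, stood at 194 and 196 CPM in Dcn-high and 165 and 108 CPM in Dcn-low cells. The highest levels in the comparison populations were 115 CPM for Kcnj8 and 170 CPM for Pdgfrb. Some listed pericyte genes were nearly absent: Notch3 had 1 and 7 UMIs in the main cluster, and Higd1b and Vtn had 0. Of the 14 listed pericyte markers, 10 stood at 10 CPM or more in the main cluster. Against the 5 comparison populations, 4 stood above all of them and 1 below all of them.

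Apart from the rule genes, most transcripts that led against the highest of the 5 comparison populations differed between the sets. Ralyl and Lnx1 were among the leading 20 in both. Lnx1 stood at 164 CPM in Dcn-high cells, seen in 71, and at 90.3 CPM in Dcn-low cells, seen in 45, against 11.1 CPM. In Dcn-high cells the first were Pnoc, the precursor of the neuropeptide nociceptin, at 72.7 CPM in 19 of 84 cells, and Ralyl at 71.9 CPM in 9 cells. Next came Aox3, an aldehyde oxidase, at 195 CPM, Faim2 at 77.8 CPM and Mab21l2 at 81.2 CPM. Grem1, a secreted BMP antagonist, stood at 147 CPM against 5.41 CPM in the highest other population. Aldh1a2, which makes retinoic acid, stood at 98.1 CPM against 3.73 CPM. The transcription factor genes Gata3, Tfap2b and Foxf1 stood at 51.6, 116 and 87.1 CPM, with Fendrr, the non-coding neighbour of Foxf1, at 55.8 CPM. The highest level of these 4 genes in a comparison population was 6.08 CPM, for Foxf1. In Dcn-low cells Tfap2b stood at 33.0 CPM and Foxf1 at 50.6 CPM, while Fendrr was seen in 21 of 74 cells and Gata3 in 1. Tfap2b, Foxf1 and Fendrr were thus not particular to Dcn-high cells. Gata3 rested mostly on knock-in cells, with 3 UMIs in 3 of 27 wild-type and 58 UMIs in 17 of 57 knock-in Dcn-high cells. It stood at 4.56 CPM in wild-type male, 41.3 CPM in knock-in male and 129 CPM in knock-in female Dcn-high cells.

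In Dcn-low cells the leading transcripts outside the rule were Ralyl, at 100 CPM in 19 of 74 cells, Dlx6os1, at 88.1 CPM, and the homeobox genes Dlx6 and Dlx5, at 67.2 and 83.7 CPM. Il1rapl2 also led, at 126 CPM, but it was seen in only 5 Dcn-low cells. Fgf12, an intracellular modulator of sodium channels, stood at 173 CPM and Lamc3, a laminin chain, at 396 CPM, against at most 5.29 and 26.5 CPM in the comparison populations and 28.8 and 22.0 CPM in Dcn-high cells. Mia stood at 371 CPM and Bmpr1b, a type I BMP receptor, at 1134 CPM, against 50.4 and 216 CPM in the Npnt, Mylk4 and Sost population. Sost, the secreted Wnt antagonist used in that population's sum, stood at 544 and 545 CPM in Dcn-low cells. The main cluster also held 5 wild-type and 37 knock-in Dcn-low cells outside the rule, in which Sost was seen in 4 and 33 and Rgs5 in 5 and 35. Of all 12 wild-type and 55 knock-in main-cluster cells outside the rule, 8 and 27 reached the sum of 4.

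The other rule genes, whose levels the choice of cells fixed, were shared unevenly by the sets. Mdga2 stood at 237 and 320 CPM in Dcn-high and 780 and 642 CPM in Dcn-low cells, against 9.44 CPM in the highest comparison population. Adamtsl1 stood at 1229 and 684 CPM in Dcn-high and 2737 and 2638 CPM in Dcn-low cells, against 302 CPM. Cacna2d3 was close to even, at 260 and 216 CPM with both libraries summed.

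Hox genes, which are expressed by position along the body axis, differed from the comparison populations in both directions. Hoxa7 had 1 UMI in its 43 wild-type and 0 in its 133 knock-in members, against 51.1 to 60.7 CPM in the 5 comparison populations. For the knock-in count of 0, a floor of 3 counts is 1.83 CPM. Hoxc6, Hoxc8 and Hoxc9 had 0 UMIs in both libraries. Hoxa7 had 0 UMIs in both the Dcn-high and the Dcn-low set.

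The more anterior Hox genes differed between the sets. Hoxa4 stood at 64.8 CPM in wild-type and 69.4 CPM in knock-in Dcn-high cells but at 9.45 and 7.18 CPM in Dcn-low cells, against at most 6.57 CPM in the comparison populations. Hoxa5 stood at 60.9 CPM in Dcn-high and 16.5 CPM in Dcn-low cells with both libraries summed, above and below the 18.8 to 35.6 CPM of the comparison populations. Hoxb4 stood at 87.9 and 37.4 CPM, against at most 31.7 CPM. Of the anterior list, 2 of 6 genes measured in wild-type and 6 of 8 in knock-in tissue were at least 2-fold higher in Dcn-high cells. None was at least 2-fold lower. Of all genes measured, 13.1% in wild-type and 10.1% in knock-in tissue were higher, and 10.6% and 8.68% were lower.

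**Figure D3:**
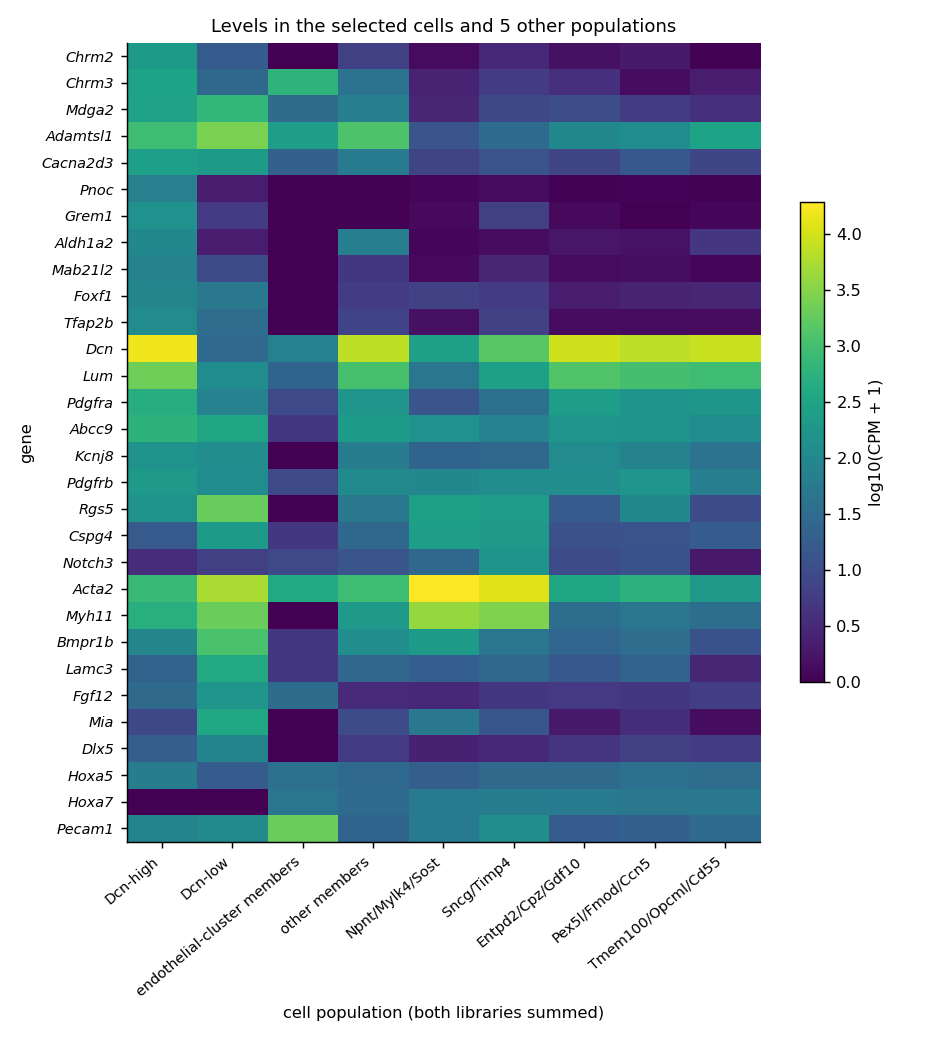
Colour gives log10 of CPM plus 1 for 30 genes (rows) in 4 sets of selected cells and 5 comparison populations (columns), with both libraries summed. Chrm2, Chrm3, Pnoc and Grem1 are high in the Dcn-high column, Rgs5, Lamc3 and Fgf12 in the Dcn-low column, and Hoxa7 is at 0 in both.

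Between the libraries, the make-up of the selected cells differed. Main-cluster members were 1.29% (0.935 to 1.73) of all wild-type cells, with 2.18% (1.83 to 2.58) in the knock-in library, and among male cells alone 2.22% (1.61 to 2.99) and 3.0% (2.30 to 3.84), whose intervals overlap. Within the main cluster the Dcn-high set was 62.8% (46.7 to 77.0) of wild-type and 42.9% (34.3 to 51.7) of knock-in members, and the Dcn-low set 32.6% (19.1 to 48.5) and 45.1% (36.5 to 54.0). The intervals of the 2 libraries overlap for the Dcn-high and the Dcn-low share.

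Over all selected cells, 8510 genes had at least 50 UMIs, of which 237 (2.78%) were at least 2-fold higher and 395 (4.64%) at least 2-fold lower in the knock-in library. The median log2 ratio of all genes was -0.11; with that median set to 0 the counts were 297 and 325. The lower genes were dominated by a few cells. Upk3b, Msln, Muc16, Dmkn, Upk1b, Krt19, Lrrn4, Wt1 and Slurp1 had 0 UMIs in the knock-in members, and all but 1 UMI each of Msln and Krt19 came from the 5 wild-type cells with Upk3b. Upk3b itself was at least 191-fold lower against a floor of 3 counts per library. Il1rapl1, the tenth, had 162 of its 164 wild-type UMIs in the same cells. The higher genes that the main cluster did not also rank were Nr1d1, Kcnk3, a background potassium channel gene with 5 and 68 UMIs, Ncam2 with 5 and 62, of which 1 cell held 66.1%, and Wdr89 with 33 and 233, which can share reads with copies. In the main cluster, 188 of 6552 genes (2.87%) were higher and 169 (2.58%) lower, and in its male cells 169 (3.43%) and 155 (3.14%) of 4932.

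Clock genes differed most evenly between the libraries. Dbp, an output gene of the circadian clock, stood at 39.1 CPM in the wild-type main cluster and at 365 CPM in the knock-in one, a log2 ratio of 3.22 (2.67 to 3.84), and at 2.83 (2.25 to 3.46) in male cells. Nr1d1, the repressor REV-ERB alpha, stood at 59.4 and 269 CPM, a log2 ratio of 2.18 (1.72 to 2.68). Npas2, a clock activator, went the other way, from 106 to 7.94 CPM, a log2 ratio of -3.73 (-4.71 to -2.87). Of 16 clock genes measured, 11 were at least 1.5-fold higher and 3 lower, where 8.7% and 11.4% of all genes were; in male cells 6 of 11 were higher and 3 lower, against 9.75% and 12.9%. The median of the list was 1.36, against -0.08 over all genes.

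The clock difference was present in both sets. In Dcn-high cells Dbp stood at 46.9 and 437 CPM, a log2 ratio of 3.22 (2.58 to 3.93), and in Dcn-low cells at 23.6 and 290 CPM, a log2 ratio of 3.62 (2.37 to 5.25). It was not limited to these cells: in the 5 comparison populations Dbp stood between 7.89 and 35.8 CPM in wild-type and between 237 and 386 CPM in knock-in tissue, and in barcodes of 10 to 100 UMIs at 21.2 and 346 CPM. The part of free RNA in the difference was not tested.

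The receptor levels between libraries depended on the sex of the cells and on the set. Chrm3 stood at 125 CPM in the wild-type main cluster and at 213 CPM in the knock-in one, a log2 ratio of 0.78 (0.43 to 1.13). In male cells it stood at 126 and 146 CPM, a log2 ratio of 0.21 (-0.20 to 0.63), while knock-in female cells held 333 CPM. Within knock-in Dcn-high cells Chrm3 stood at 634 CPM in 26 female and 198 CPM in 28 male cells, against 146 CPM in 26 wild-type male cells. Chrm2 stood at 132 and 115 CPM in the main cluster, a log2 ratio of -0.20 (-0.57 to 0.18), and at 133 and 159 CPM in male cells. In male Dcn-high cells it stood at 178 (140 to 222) CPM in wild-type and 306 (252 to 368) CPM in knock-in tissue. Of the 111 Chrm2 UMIs behind the knock-in male value, 1 cell held 59. The higher knock-in level thus rests largely on that cell, which also enters the 159 CPM above. In knock-in female Dcn-high cells Chrm2 stood at 183 CPM. Among the Gq signalling genes, 1 of 8 measured, Plcb4, was at least 1.5-fold higher and 0 were lower in the knock-in main cluster, where 8.7% and 11.4% of all genes were. Of the genes listed for inhibitory G protein signalling, 3 of 9, Gnao1, Adcy5 and Grk5, were higher and 0 lower there. In male cells 3 of 7, Adcy3, Adcy5 and Grk5, were higher and 0 lower, where 9.75% and 12.9% of all genes were.

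Contractile genes were higher in knock-in Dcn-high cells, while most were within 1.5-fold in Dcn-low cells; the difference between the sets was not tested. In Dcn-high cells 12 of 14 genes measured were at least 1.5-fold higher in the knock-in library and 0 lower, where 11.3% and 14.2% of all genes were. In Dcn-low cells 1 of 15 was higher and 1 lower, where 11.4% and 12.5% were. Acta2 stood at 96.1 CPM in wild-type and 1211 CPM in knock-in Dcn-high cells, but its median was 1 and 2 UMIs per cell and 3 of 57 knock-in cells held 41.7% of its UMIs. Barcodes of 10 to 100 UMIs held Acta2 at 4054 and 9607 CPM, so free RNA of this gene moved in the same direction. Its part in the result was not tested. Macrophages held Acta2 at 139 and 1076 CPM. Myh11 stood at 132 and 735 CPM in Dcn-high cells, against 11.6 and 245 CPM in macrophages. With both libraries summed, the 10 smooth muscle markers reached 1271 CPM in these macrophages. In the cluster highest in macrophage markers they reached 172 CPM. The macrophage values of contractile genes are thus not a clean gauge of free RNA.

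Collagens were lower in knock-in Dcn-high cells and level or higher in Dcn-low cells. In Dcn-high cells 8 of 10 fibrillar and associated collagen genes were at least 1.5-fold lower in the knock-in library, where 14.2% of all genes were, and in Dcn-low cells 4 of 11 were higher and 0 lower, where 11.4% and 12.5% were. Other lists were also higher in knock-in Dcn-low cells: 5 of 7 fibroblast markers were higher and 1 lower, and 7 of 15 dissociation genes were higher and 0 lower. In Dcn-high cells 0 of 9 fibroblast markers were higher and 4 lower, and 4 of 16 dissociation genes were higher and 1 lower. The part of dissociation in the collagen values was not tested. Col3a1 stood at 8206 and 2600 CPM in Dcn-high cells, a log2 ratio of -1.66 (-1.74 to -1.58), and at 2042 and 3221 CPM in Dcn-low cells, a log2 ratio of 0.66 (0.51 to 0.81). In male Dcn-high cells it stood at 8308 and 2964 CPM. Col1a1 stood at 3606 and 1626 CPM in Dcn-high and 2236 and 2240 CPM in Dcn-low cells. Col3a1 also stood lower in the knock-in library in all 5 comparison populations, from 8549 and 2250 CPM in the Sncg, Timp4, Sparcl1 and Npy1r population to 15911 and 15438 CPM in the Tmem100, Opcml and Cd55 population. Of 18 elastic fibre genes measured in Dcn-high cells 10 were at least 1.5-fold lower and 2 higher, where 14.2% and 11.3% of all genes were. Of 16 in Dcn-low cells 2 were lower and 0 higher, where 12.5% and 11.4% of all genes were. The difference between the Dcn-high and Dcn-low ratios was not tested.

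BMP genes differed by set and by gene. Mgp, the mutated gene, stood at 15519 CPM in wild-type and 22894 CPM in knock-in Dcn-high cells and at 5800 and 6998 CPM in Dcn-low cells, and its UMIs do not tell the mutated transcript apart. Of 9 BMP target genes measured in the main cluster, Id1 and Hey1 were at least 1.5-fold higher and 0 were lower. Of all genes 8.7% and 11.4% were. The list median was 0.25, against -0.08 over all genes. In male cells 1 of 7, Id1, was higher and 0 were lower, where 9.75% and 12.9% of all genes were. In Dcn-high cells 0 of 5 were higher and 0 lower, where 11.3% and 14.2% were. In Dcn-low cells 1 of 6 was higher and 0 lower, where 11.4% and 12.5% were. Hey1 had few UMIs, 10 and 20 in Dcn-high and 1 and 12 in Dcn-low cells. Id1 stood at 64.8 and 70.8 CPM in Dcn-high cells, a log2 ratio of 0.13 (-0.56 to 0.84), and at 89.8 and 165 CPM in Dcn-low cells, a log2 ratio of 0.88 (0.17 to 1.66). Grem1 stood at 53.6 and 204 CPM in Dcn-high cells, a log2 ratio of 1.93 (1.30 to 2.62), and was seen in 8 of 27 and 26 of 57 cells. In male Dcn-high cells Grem1 stood at 50.1 and 237 CPM. Bmpr1b stood at 1012 and 1171 CPM in Dcn-low cells. In Dcn-high cells Bmpr1b had 2 UMIs in 1 of 27 wild-type cells and 103 UMIs in 16 of 57 knock-in cells, and in male Dcn-high cells it stood at 4.56 and 220 CPM.

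Of the remaining genes that the naming rule picked in the main cluster, several rested on few cells. Mmp3, a matrix protease, had 90 wild-type UMIs against 3, but 3 wild-type cells held 98.9% of them, and 1 wild-type cell held 97.3% of the Il1rapl2 UMIs. Rassf9 had 88.2% of its wild-type UMIs in 1 cell, and Igfbp3 had 88.1% in 3 cells. In the other direction, Prg4 had 73.6% of its 197 knock-in UMIs in 3 cells. More widely spread were Adamts12, a matrix protease at 335 and 69.4 CPM in Dcn-high cells, and the lipase gene Lpl, at 389 and 110 CPM. Lgi2, Dapk1 and Adamts15 were also lower, with 46 and 13, 97 and 49, and 41 and 17 UMIs.

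Among the higher genes, Tcap, a sarcomere protein gene, stood at 23.2 and 481 CPM in the main cluster, was seen in 71 of 133 knock-in members and stood at 29.2 and 485 CPM in the Npnt, Mylk4 and Sost population. Ccn3, a secreted matricellular protein, stood at 9.45 and 240 CPM in Dcn-low cells and was seen in 31 of 60 knock-in cells. Ccbe1 had 0 wild-type and 52 knock-in UMIs, at least 7.31-fold higher against the floor of 3 counts, and Bhlhe41 had 1 and 87, a log2 ratio of 5.20 (2.68 to 10.5). Cx3cr1 had 2 and 69 UMIs and Lrmda 5 and 108. Both are known from macrophages, where Cx3cr1 stood at 83.2 and 62.6 CPM and Lrmda at 240 and 214 CPM. The macrophage gene C1qa had 3 and 6 UMIs in the main cluster. Cells with at least 20 UMIs of C1qa, C1qb, C1qc and Lyz2 had been left out, so that limit set its low count in part.

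**Figure D4:**
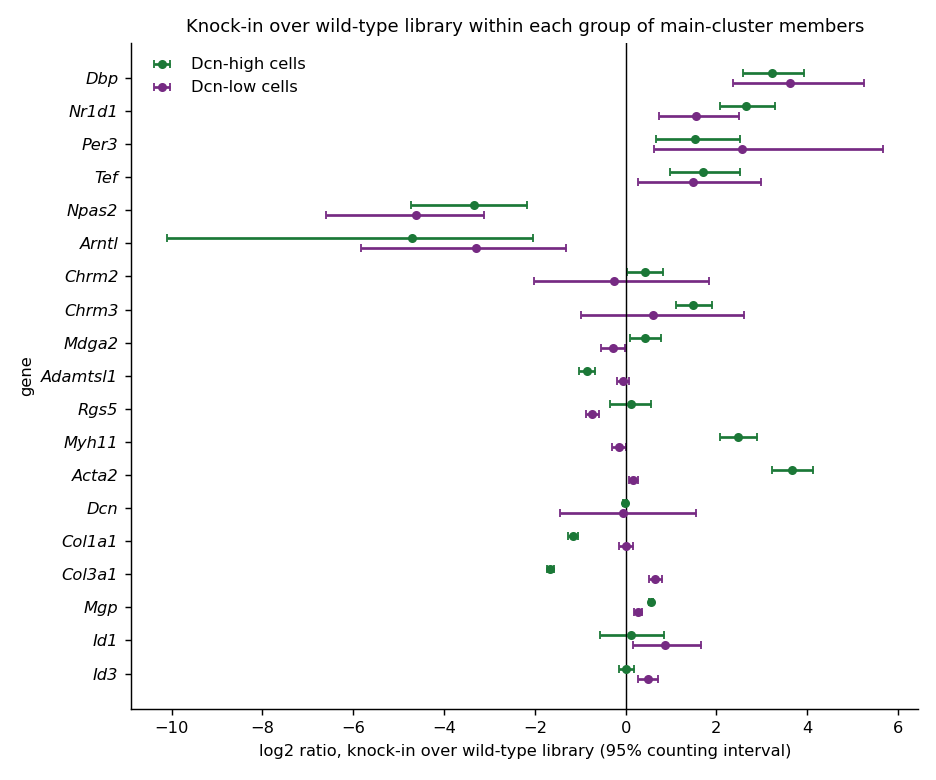
Points give the log2 ratio of knock-in over wild-type CPM for 19 genes (rows) in Dcn-high and Dcn-low main-cluster members, with 95% counting intervals as bars and no replicate error. Dbp and Npas2 lie on the same side of 0 in both sets, while Acta2 and Myh11 lie far above 0 only in Dcn-high cells and Col3a1 lies on opposite sides.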

How the data were processed

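The values the authors deposited were UMI counts per gene and barcode in 2 droplet libraries, raw and over all barcodes. Per the submitters' processing notes, Cell Ranger 7.1.0 produced them. Genome build, annotation and intron counting: not given in the sources used here. Cells had at least 1000 UMIs, 500 genes, at most 10% mitochondrial UMIs and under 20 UMIs of C1qa, C1qb, C1qc and Lyz2. The members and gene lists were chosen with earlier results of these data known. Counts were summed over cells per library and given as CPM. Shares carry Clopper-Pearson, CPM Poisson and log2 ratios exact conditional binomial intervals at 95%; no test between genotypes was possible. Named genes between libraries were, among genes of at least 50 UMIs and 20 CPM (without rule genes, sex-linked or unnamed genes, or genes of mitochondria, ribosomes, immunoglobulins and hemoglobins), the 10 highest and 10 lowest by the interval bound nearest 0; those named against other populations had the largest ratio to the highest of the 5, and list genes outside these ranks were chosen after their values were seen. Genes that met the rule but are withheld are not reported here. Genes entered the Dcn-high to Dcn-low counts at 20 UMIs and the counts between libraries at 50, with 0.5 added to each sum. Clustering used scanpy 1.11.5 (30 components, 15 neighbours, Leiden resolution 0.8) on 1969 variable genes. Doublets were scored with scrublet and kept in the main values; 1 of 43 and 3 of 133 main-cluster members were over the limit of 0.8% per 1000 cells. The interval step was tested on simulated counts. Alternatives were the rule's limit, filters, doublets, sex, depth, scaling and count minimum, and, added after the data were seen, the main cluster and other splits of it.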

Additional observations from a re-analysis of the deposited data

How the results depend on the processing

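The share of selected cells stayed within its counting interval under another sum limit (3 or 6 UMIs), depth or mitochondrial filter, doublet removal and thinning. It was 1.61% in wild-type female and 3.33% in wild-type male cells, 3.60% in knock-in male cells, 4.36% in wild-type cells of 8000 to 20000 UMIs, 0.900% and 1.63% for members with an Rgs5 UMI, and 1.29% and 2.18% for main-cluster members. Genes at least 2-fold higher numbered 359 in female cells, 475 with a minimum of 20 UMIs and 2973 with none; genes at least 2-fold lower numbered 227 in cells of 8000 to 20000 UMIs, 174 in members with an Rgs5 UMI, 169 in the main cluster, 155 in its male cells, 755 with a minimum of 20 UMIs and 2869 with none. The log2 ratio of Ncam2 was 3.01 and turned to -0.78 in members with an Rgs5 UMI; 1 knock-in cell held 66.1% of its UMIs. The cause was not tested. For Chrm2 and Chrm3, the log2 ratio of Dcn-high over Dcn-low cells was 4.45 in wild-type and 6.09 in knock-in tissue with the k-means split, and in knock-in tissue 3.29 with a limit of 10 Dcn UMIs and 2.56 in male cells. For Rgs5 it was -3.79 and -4.22 with the k-means split, and -3.84 in knock-in tissue over all main-cluster cells. No paired analysis was possible because each genotype has 1 library, which also left no replicate to omit. Sets of 14 to 60 cells limit all values within the main cluster.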
